A study of Mus musculus with 12 samples.

Results

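Lymphocytes stay alive in part through receptors of the tumour necrosis factor (TNF) receptor superfamily, and 10 genes of the BAFF, CD40 and TRAF branch of this system were followed here among 41128 genes measured. Each was found in the table by its gene name. They comprise 5 receptors (Tnfrsf13c, Tnfrsf13b, Tnfrsf17, Cd40 and Cd27), 4 TRAF adaptors (Traf1, Traf2, Traf3 and Traf5) and 1 kinase, Map3k14. Of the 10, 9 passed the filter for testing, which asked for 1 unit of adjusted TPM or more in 3 or more libraries, and Tnfrsf17 did not.

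Gene expression had been profiled by RNA sequencing in spleen lymphocytes of C57BL/6J mice aged 6 to 8 weeks, with no treatment named. The 12 libraries form 4 groups of 3, namely resting CD43- B cells of females, the same cells of males, naive CD4+CD62L+ T cells of females and the same T cells of males. The series describes its replicates as pooled mice, so p-values measure the spread between these pools. B cell libraries are numbered 1 to 3 and T cell libraries 4 to 6 in each sex. Values are in adjusted TPM, the submitters' name for a transcript abundance. TPM corrects for gene length, and levels of different genes are set side by side here on the assumption that the adjustment, which is not described in the sources used here, kept that correction.

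BAFF, a cytokine made mainly by stromal and myeloid cells, keeps mature B cells alive through the BAFF receptor, and CD40 receives help from T cells that display CD40 ligand. In an unstimulated B cell, TRAF3 together with TRAF2 and cIAP ubiquitin ligases holds the kinase NIK, encoded by Map3k14, at a low protein level by marking it for degradation. Binding of BAFF or CD40 ligand removes TRAF3, NIK accumulates, and the alternative NF-kB pathway processes the Nfkb2 product into its active form. Most of this control acts on protein, and the values below are of RNA.

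The cell type labels were checked against defining markers. The B cell markers Cd79a, Cd79b, Ms4a1 and Pax5 summed to 2220 to 2643 in B cell libraries and to 0.896 to 4.91 in T cell libraries. The T cell markers Cd3d, Cd3e, Cd4, Lck and Tcf7 summed to 1017 to 1194 in T cells and to 9.76 to 14.1 in B cells, where Lck alone had 8.94 to 13.4 and Cd4 was at most 0.00594. Summed within each library, 4 plasma cell markers had 103.6 to 116.0 in B and 27.7 to 34.3 in T cell libraries. The 3 germinal centre markers had 25.2 to 43.1 and 20.7 to 23.3, and 5 dendritic cell and macrophage markers 11.4 to 18.3 and 1.20 to 5.25. Among plasma cell markers in B cells, Xbp1 had 43.7 to 57.3, Irf4 47.6 to 58.5, Sdc1 5.48 to 6.82 and Prdm1 0.521 to 0.932. Prdm1 was higher in T cells, at 1.31 to 1.96, as was the germinal centre marker Fas, at 14.2 to 16.3 against 2.19 to 4.38. The sum of 6 markers of regulatory and activated T cells was 30.9 to 36.8 in B and 35.2 to 64.0 in T cell libraries. Of these 6, Cd44 was higher in B cells, at 20.7 to 25.5, and Foxp3 was at most 0.323 there.

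Both T cell libraries numbered 6 stood apart. Foxp3, Il2ra and Ikzf2, which mark regulatory T cells, summed to 20.97 in female T cell 6 and 17.2 in male T cell 6, against 1.75 to 3.14 in the other 4 T cell libraries, although cells carrying CD25, the product of Il2ra, were depleted and gated out per the labels. Totals of adjusted TPM ran from 561020 to 1453940, and the noncoding RNA Yam1, named after its values were seen, took 32.2% of the total in female B cell 1 and 37.4% in male T cell 6. Results that rest on these libraries are given with and without them.

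Short stretches of the promoters of the B cell-enriched members are shown first, because NF-kB dimers, Ets factors and E-box factors are known regulators of lymphoid genes. RefSeq windows of GRCm38.p6, from 250 bases before to 50 after the start, were given for 9 of the 10 genes. No window was given for Cd40, so its promoter was not searched. The search covered both strands for the kappaB core GGGANNNNCC, bound by NF-kB dimers, the Ets core AGGAAGT and the E-box CAGGTG. The lines below give 30 bases around a match, read 5′ to 3′ on the strand of the gene, with the motif in capitals, and a kappaB core met on the other strand appears as its reverse complement.
Tnfrsf13b, kappaB core, plus strand of chr11:61126684-61126713: caggtcgaagGGGAAAACCCaggaagtgtg
Traf5, kappaB core, minus strand of chr1:192092786-192092815: ctagggtctgGGTGATTCCCagcatctaga
Traf2, kappaB core, minus strand of chr2:25546891-25546920: cgcggcagcgggGGTGTTTCCCggcgagcg
Traf3, Ets core, plus strand of chr12:111166369-111166398: cagcgcgcgagAGGAAGTgccagcgcgagg
Tnfrsf13c, E-box, minus strand of chr15:82224459-82224488: atgcaggaaccaCAGGTGaaagaggtctgg

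The kappaB core was found in 3 of the 9 member windows, those of Tnfrsf13b, Traf2 and Traf5, and in 20.7% of all 32851 promoter windows. In Tnfrsf13b it lay 61 to 52 bases before the start and was followed at once by an Ets core, from 51 to 45 bases before the start, with no overlap between them. The Ets core was found in Tnfrsf13b and Traf3 and in 9.35% of all windows, and the E-box in Tnfrsf13c and Traf5 and in 20.2%. The count of CpG dinucleotides ranged from 4 in the window of Traf1 to 59 in that of Traf3, where all windows had a median of 7 and 99.9% of them held fewer than Traf3. A match says only that these letters are present.

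B and T cells were compared to learn which of these genes the resting cells of each lineage carry. Of the 9 members tested, 8 passed the threshold (limma, Benjamini-Hochberg adjusted p under 0.05), a count to be read against the 73% of all 12520 genes tested that did so. Cd40, Tnfrsf13c, Tnfrsf13b, Traf2, Traf3 and Traf5 were higher in B cells, a direction taken by 31.4% of all genes, and Cd27 and Traf1 were higher in T cells, a direction taken by 41.6%. The median difference of the 9 members was 0.66 on the log2 scale, where that of all genes was -0.088. The B and T cell libraries did not overlap for 8 of the 9, and for 53.9% of all genes. A difference of at least 1 on this scale was reached by 5 of the 9 members and by 21.6% of all genes. In bulk RNA, fewer cells that carry a transcript and less of it per cell cannot be told apart.

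**Figure D1:**
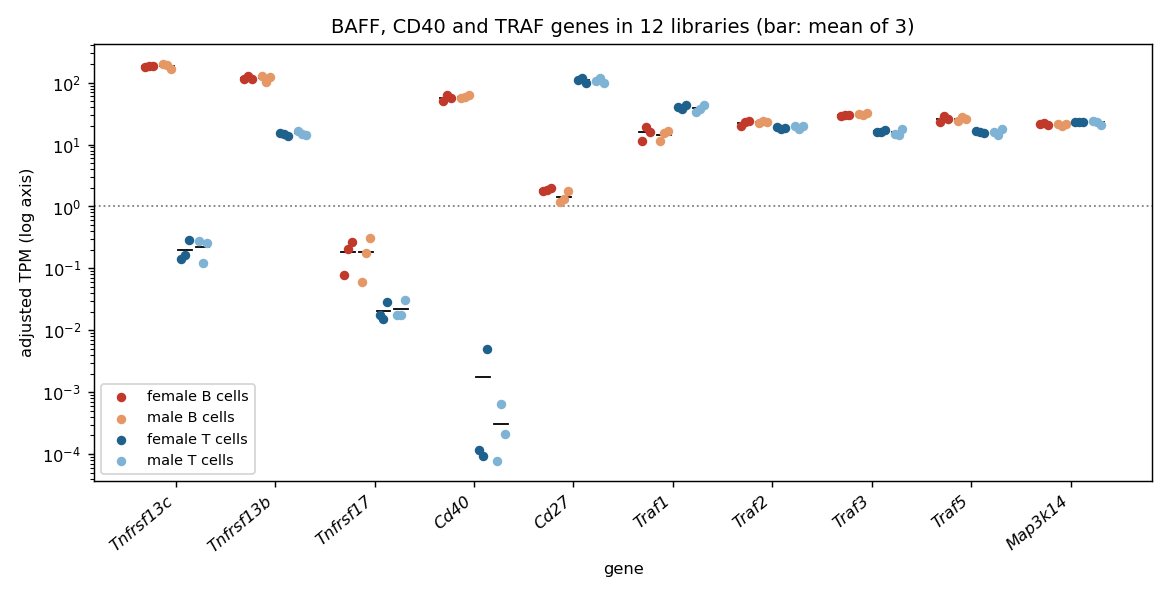
Adjusted TPM (log axis) of the 10 genes in each of the 12 libraries, coloured by cell type and sex, with a short bar at the mean of each group of 3. The dotted line marks an adjusted TPM of 1. For Map3k14 the B and T cell values overlap, and for the other 9 genes they do not.

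Tnfrsf13c encodes the BAFF receptor (chromosome 15, 82221743 to 82224369, minus strand of GRCm38), which binds BAFF alone among the known ligands of the family. Its adjusted TPM was 177.3, 189.0 and 186.2 in female B cells and 201.5, 194.3 and 164.2 in male B cells. In T cells it was 0.140, 0.166 and 0.290 in females and 0.282, 0.123 and 0.253 in males. All B cell libraries were far above all T cell libraries, and the means were 185.4 ± 13.2 (SD, n = 6) and 0.209 ± 0.0746 (SD, n = 6). The fitted difference of log2(adjusted TPM + 1) was 7.27 (SE 0.06, adjusted p = 7.4e-17), and the added 1 makes it smaller than the ratio of the means, 888.

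Tnfrsf13b encodes TACI (chromosome 11, 61126755 to 61149372, plus strand), a receptor for both BAFF and APRIL that is known for restraining B cell numbers. Female B cells had 113.95, 127.1 and 114.3, and male B cells 128.6, 104.2 and 123.3. Female T cells had 15.3, 14.9 and 13.7, and male T cells 16.3, 14.8 and 14.2. B cells were thus higher without overlap (log2 difference 2.91, SE 0.06, adjusted p = 2.1e-13), but T cells carried far more of this transcript than of the other receptors of B cells.

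The T cell mean of Tnfrsf13b was 12.5% of the B cell mean, whereas that of Tnfrsf13c was 0.113%. The B cell marker sum in T cells, at most 4.91, stood below the lowest Tnfrsf13b value in T cells, 13.7, although the same sum in B cells was at least 2220. In the T cell libraries numbered 6, where that marker sum was 4.91 and 2.43 against 0.896 to 1.82 in the other 4, Tnfrsf13b was at its lowest. The part of B cells in the Tnfrsf13b level of T cells was not tested. Within each T cell library the ratio of Tnfrsf13b to Tnfrsf13c was 47.4 to 120.8, and within each B cell library it was 0.536 to 0.751. This ratio does not depend on how libraries are scaled. In T cells its denominator was only 0.123 to 0.290, with upper bounds 2.26 to 4.39 times the lower bounds, so the T cell ratios are imprecise.

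Tnfrsf17 encodes BCMA (chromosome 16, 11313812 to 11320074, plus strand), the receptor that sustains plasma cells. It had 0.0782, 0.209 and 0.265 in female B cells and 0.0600, 0.176 and 0.308 in male B cells. T cells had between 0.0149 and 0.0311. The point estimates did not overlap, but the highest deposited upper bound in T cells, 0.193, exceeded 3 of the 6 B cell values, and the gene was below the level for testing.

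Cd40 encodes the receptor through which T cells license B cells (chromosome 2, 165055627 to 165072948, plus strand). Its adjusted TPM was 50.4, 62.3 and 55.9 in female B cells and 56.0, 57.9 and 62.4 in male B cells. No T cell library exceeded 0.00498, and the highest upper bound among them was 0.0285. The gene was thus read at a steady level in all B cell libraries and was close to 0 in T cells (log2 difference 5.86, SE 0.06, adjusted p = 1.9e-16).

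Cd27 encodes the receptor for CD70 (chromosome 6, 125232622 to 125237010, minus strand), which costimulates T cells. Female T cells had 110.8, 119.1 and 99.6, and male T cells 105.0, 117.2 and 97.9. B cells had 1.75, 1.81 and 1.97 in females and 1.20, 1.31 and 1.78 in males. T cells were higher without overlap (log2 difference -5.38 for B minus T cells, SE 0.07, adjusted p = 2.1e-15), and the B cell mean was 1.51% of the T cell mean. In the annotation Cd27 overlaps Vamp1 on the opposite strand, which had 22.6 ± 3.64 (SD, n = 6) in B cells, and the strand used for counting is not given in the sources used here.

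**Figure D2:**
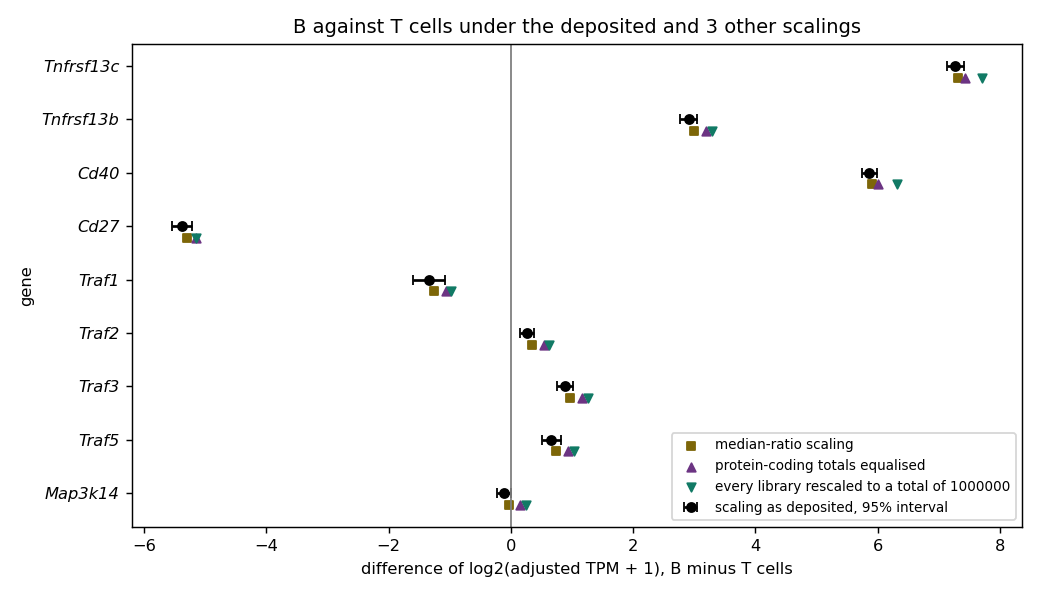
Difference of log2(adjusted TPM + 1) between B and T cells for the 9 genes tested, with positive values higher in B cells. Black points with bars are the values as deposited with 95% intervals, and the other symbols are 3 other scalings of the libraries. Map3k14 is the only one of the 9 whose sign changes.

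The receptor makeup of the cells followed from these levels. Of the summed adjusted TPM of the 5 receptors, Tnfrsf13c made up 46.7% to 54.3% in B cell libraries, Tnfrsf13b 29.1% to 35.03% and Cd40 14.5% to 17.7%. In T cell libraries Cd27 made up 86.4% to 88.8% and Tnfrsf13b 11.1% to 13.4%. The summed level was 343.5 to 387.3 in B cells and 112.4 to 134.2 in T cells, without overlap.

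The adaptors differed less between the lineages. Traf1 encodes an adaptor without the RING domain of its relatives and is itself switched on by NF-kB (chromosome 2, 34941750 to 34961772, minus strand). It had 11.6, 19.5 and 16.3 in female B cells and 11.5, 15.5 and 16.6 in male B cells. Female T cells had 40.2, 37.4 and 44.1, and male T cells 33.7, 37.3 and 43.8. All T cell libraries were above all B cell libraries (log2 difference -1.34, SE 0.12, adjusted p = 4.9e-07), and the T cell mean was 2.60 times the B cell mean.

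Traf1 was also the most variable of the TRAF genes among B cell libraries, with an SD of 20.5% of the mean, against 4.28% for Traf3. Both B cell libraries numbered 1 were the lowest. Both T cell libraries numbered 6 were the highest, and without these 2 libraries the log2 difference was -1.26 (SE 0.14, adjusted p = 1.7e-05).

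Traf3 encodes the adaptor that brings NIK to its ubiquitin ligases (chromosome 12, 111166370 to 111267153, plus strand). Female B cells had 28.98, 29.7 and 30.5, and male B cells 31.2, 30.6 and 32.8. Female T cells had 16.0, 16.0 and 17.3, and male T cells 14.9, 14.3 and 18.1. The lowest B cell value was far above the highest T cell value, and the log2 difference was 0.89 (SE 0.06, adjusted p = 2.1e-08), a ratio of means of 1.90.

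Traf2 encodes the adaptor that links TRAF3 to the cIAP ligases (chromosome 2, 25517982 to 25546940, minus strand). It had 20.1, 22.9 and 23.6 in female B cells and 22.7, 24.1 and 23.0 in male B cells. In T cells the values were 19.1, 17.9 and 18.2 in females and 20.0, 17.7 and 19.8 in males. The lineages only just failed to overlap, 20.1 against 20.0, and the log2 difference of 0.26 (SE 0.05, adjusted p = 0.00081) was the smallest of the 8 called.

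Traf5 encodes an adaptor of several TNF receptors, CD40 and CD27 among them (chromosome 1, 191997205 to 192092559, minus strand). Its lowest, median and highest values were 23.1, 25.7 and 29.03 over the B cell libraries. Over the T cell libraries they were 14.1, 16.1 and 17.8. B cells were higher without overlap (log2 difference 0.66, SE 0.07, adjusted p = 2.9e-06). Of the genes that overlap Tnfrsf13b, Traf2, Traf3, Traf5 and Map3k14 in the annotation, Gstp-ps within Traf5 had no values under that name. The others had mean levels below 1 in B cells and in T cells.

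Map3k14 encodes NIK (chromosome 11, 103219762 to 103267472, minus strand), the kinase that starts the alternative NF-kB pathway. Female B cells had 21.4, 22.1 and 20.5, and male B cells 21.5, 19.6 and 21.7. Female T cells had 23.2, 23.3 and 23.2, and male T cells 24.4, 23.2 and 20.8. Male T cell 6 fell among the B cell libraries and the other 5 T cell libraries lay above all of them.

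The log2 difference of Map3k14 was -0.12 (SE 0.05, 95% interval -0.23 to -0.01, adjusted p = 0.055). It was -0.15 without male T cell 6 (adjusted p = 0.015), -0.15 without both T cell libraries numbered 6 (adjusted p = 0.020), and 0.25 once every library was rescaled to a total of 1000000 (adjusted p = 0.27). Rescaling to that total moved the median of all genes from -0.088 to 0.25. Relative to this median, Map3k14 was at -0.031 as deposited and -0.0069 after rescaling, Traf2 at 0.35 and 0.38, and Traf1 at -1.25 and -1.23. The direction of Map3k14 therefore hangs on the scaling, and those of the other 8 genes do not under the 3 scalings tried.

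**Figure D3:**
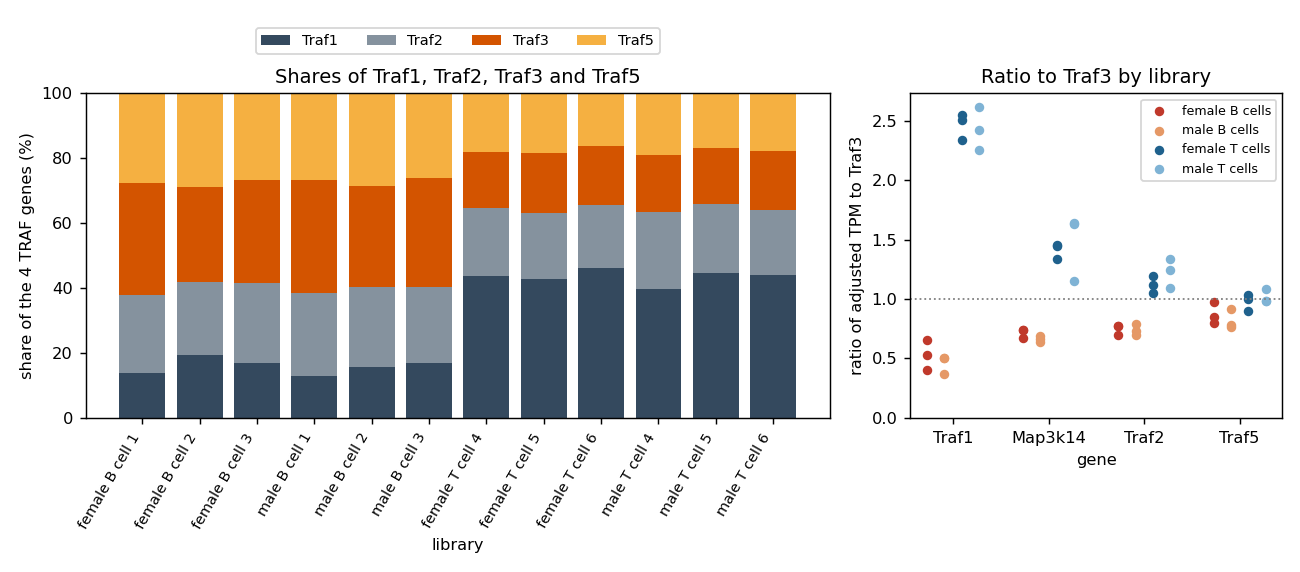
Left, share of each TRAF gene in the summed adjusted TPM of Traf1, Traf2, Traf3 and Traf5 by library. Right, ratio of Traf1, Map3k14, Traf2 and Traf5 to Traf3 within each library, with a dotted line at a ratio of 1. Traf1 takes 12.9% to 19.3% in B cells and 39.7% to 46.3% in T cells.

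Ratios within a library remove the scaling, and they set the lineages apart in the balance of these genes. Traf1 was 0.369 to 0.656 times Traf3 in B cell libraries and 2.25 to 2.62 times Traf3 in T cell libraries. Map3k14 was 0.642 to 0.744 times Traf3 in B cells and 1.15 to 1.64 times in T cells, so the RNA of the kinase was below that of its restraining adaptor in all 6 B cell libraries and above it in all 6 T cell libraries. The lowest T cell ratio, 1.15, was that of male T cell 6.

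The sum of the 4 TRAF genes overlapped between lineages, at 83.8 to 101.1 in B cells and 83.4 to 99.6 in T cells, while the makeup did not. Traf3 took 29.4% to 34.96% of this sum in B cells and 17.1% to 18.3% in T cells. Traf5 took 26.2% to 28.7% and 16.4% to 19.1%. The share of Traf2 overlapped, at 22.7% to 25.5% and 19.1% to 23.6%, as did the ratio of Traf5 to Traf3, at 0.763 to 0.978 and 0.898 to 1.081.

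Ordered by level, the genes formed different series in the lineages. In B cells the order was Tnfrsf13c, Tnfrsf13b, Cd40, Traf3, Traf5, Traf2, Map3k14, Traf1, Cd27 and Tnfrsf17. Neighbours from Traf3 to Map3k14 overlapped in range over libraries and the other neighbours did not. In T cells the order was Cd27, Traf1, Map3k14, Traf2, Traf3, Traf5, Tnfrsf13b, Tnfrsf13c, Tnfrsf17 and Cd40. From Traf2 to Tnfrsf13b neighbours overlapped, and Traf3 was above Traf5 in 3 of the 6 T cell libraries.

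Each sex gave the same calls. Within females 8 of the 9 members passed the threshold, as did 62.7% of all genes, and within males 8 did, as did 62.3%. In both sexes the 6 genes higher in B cells were Tnfrsf13c, Tnfrsf13b, Cd40, Traf2, Traf3 and Traf5, and the 2 higher in T cells were Cd27 and Traf1. Of all genes, 27.1% were higher in B cells of females and 35.6% lower, and in males 27.6% and 34.7%. Map3k14 was at -0.12 in females (adjusted p = 0.17) and -0.12 in males (adjusted p = 0.19).

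Females and males were compared within each lineage. The submitters' library names carry a further digit, unexplained in the names, that differs between the sexes in each lineage and between the lineages in each sex. Sex effects within a lineage, their difference between lineages and lineage effects within a sex cannot be told apart from what it marks. In B cells 0 of the 9 members passed the threshold in limma, as did 0.144% of all genes, and 1 member, Cd27, had an unadjusted p under 0.05. In female B cells Cd27 was 1.85 ± 0.111 (SD, n = 3), and in those of males 1.43 ± 0.304 (SD, n = 3), and the groups overlapped (log2 difference 0.23, 95% interval 0.01 to 0.46, adjusted p = 1.00). Traf3 was the only one of the 9 without overlap, with 28.98 to 30.5 in females and 30.6 to 32.8 in males, where 7.2% of all genes did not overlap. Its log2 difference was -0.08 (95% interval -0.26 to 0.10, adjusted p = 1.00).

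In T cells 0 of the 9 members passed in limma, as did 0.104% of all genes, and 0 reached 0.05 before adjustment. The groups overlapped for all 9, where 8.49% of all genes did not. The log2 differences, female minus male, lay between -0.05 and 0.09, and the widest interval, that of Traf1, ran from -0.29 to 0.46. The difference between the sex effects of B and T cells passed the threshold in limma for 0 members and for 0% of all genes, and before adjustment 0 members and 295 of all genes were under 0.05. With 3 libraries a group, sex effects of the size inside these intervals are not excluded. The intervals are of single genes without adjustment, so they are not limits of what the threshold could detect.

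**Figure D4:**
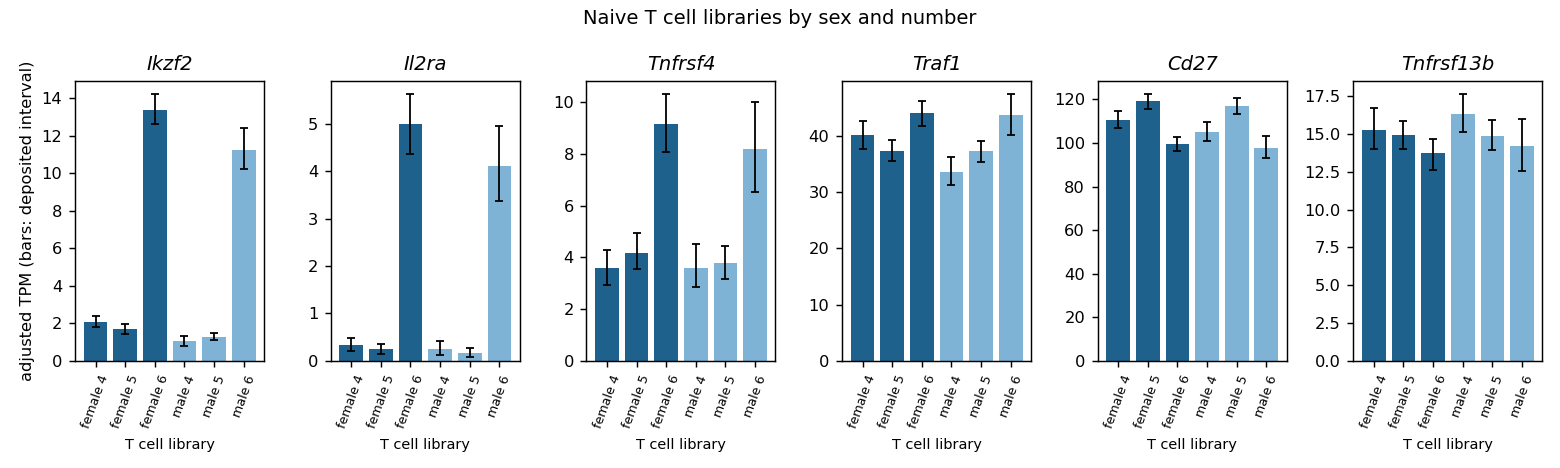
Adjusted TPM in the 6 naive T cell libraries of Ikzf2, Il2ra and Tnfrsf4, expressed by regulatory or activated T cells, and of Traf1, Cd27 and Tnfrsf13b, with the deposited lower and upper bounds as error bars. In both libraries numbered 6 the first 4 genes are at their highest and Cd27 and Tnfrsf13b at their lowest.

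Traf1, Traf3 and Tnfrsf17, the last near 0 throughout, had their highest T cell values in the 2 libraries numbered 6. Cd27, Tnfrsf13b and Map3k14 had their lowest there. For Map3k14 this was nearly a tie in female T cell 6, at 23.21 against 23.23 in male T cell 5. The share of all genes that set these 2 libraries apart in this way was not counted. The pattern is therefore not read as particular to the members. Ikzf2, a transcription factor of regulatory T cells, was 13.4 and 11.3 in female and male T cell 6 and 1.07 to 2.07 in the other 4 libraries. Il2ra was 4.999 and 4.11 against 0.158 to 0.340, and Tnfrsf4, the receptor OX40, was 9.16 and 8.18 against 3.58 to 4.16. Of the 6 markers of regulatory and activated T cells, 5 were higher in both libraries than in any of the other 4, and the exception was Cd44, with 9.86 and 5.89 against 7.36 to 10.7. Markers of other cells moved too, with 4 of the 5 dendritic cell and macrophage markers and 3 of the 4 B cell markers higher in both. Lyz2, a myeloid gene, was 2.52 and 1.22 against 0.0335 to 0.873, and Itgax was 0.499 and 0.394 against 0.0372 to 0.0571. The T cell marker sum was lower, at 1017 and 1052 against 1132 to 1194. In the same libraries Traf1 was 44.1 and 43.8 against 33.7 to 40.2, and Cd27 was 99.6 and 97.9 against 105.0 to 119.1. Traf3 was 17.3 and 18.1 against 14.3 to 16.0. The part of regulatory T cells, myeloid cells or B cells in these levels was not tested. Without both libraries, Cd27 differed by -5.44, Tnfrsf13b by 2.87 and Traf3 by 0.95 on the log2 scale between B and T cells. In that fit 9 of the 9 members passed the threshold, as did 73.7% of all genes.

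The other genes of the pathway were taken from 6 fixed lists with 49 genes, of which 44 were tested. Between the lineages 37 passed the threshold, a count to be read against the 73% of all genes that did so. Of these 37, B cells had the higher level in 17 and T cells in 20. Of all genes, 31.4% were higher in B cells and 41.6% in T cells. Rescaled to totals of 1000000, the split of the list genes was 19 to 13. For all genes it moved from 3926 and 5208 to 4812 and 1985.

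Of the 4 ligand genes, Cd40lg, which encodes CD40 ligand, was tested and was higher in T cells. It had 19.4 to 26.7 in T cells and 0.0451 to 0.0872 in B cells (log2 difference -4.40, SE 0.08, adjusted p = 2.9e-14). CD40 ligand RNA and Cd40 RNA were thus on opposite sides, the ligand in T cells and the receptor in B cells. Tnfsf13b, encoding BAFF, and Tnfsf13, encoding APRIL, were at most 0.0574 and 0.0227 in any library, and Cd70, encoding the ligand of CD27, was at most 0.00727.

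Of the 12 other TNF receptor genes 10 were tested, 8 were higher in T cells and 1 in B cells. These counts were the same under the 3 other scalings. Of all genes, 15.9% to 41.6% were higher in T cells and 31.4% to 45.4% in B cells, depending on the scaling. Tnfrsf8 and Ltbr were below the level for testing, and both were higher in B cells without overlap. Their B cell means were 0.0792 and 0.0889, and their T cell means 0.00541 and 0.00626. Tnfrsf25, encoding the death receptor DR3, was at 23.3 to 29.4 in T cell libraries and no higher than 0.0406 in any B cell library. Tnfrsf1a, encoding TNF receptor 1, differed by -3.61, Fas by -1.91 and Tnfrsf18, encoding GITR, by -1.57 on the log2 scale. Tnfrsf21, encoding the death receptor DR6, was the gene higher in B cells (log2 difference 1.39, SE 0.07, adjusted p = 1.7e-09), at 1.28 to 1.96 against at most 0.0714.

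Among other TRAF genes and partners 9 were tested, 3 were higher in B cells and 2 in T cells, beside 31.4% and 41.6% of all genes. With totals of 1000000 these counts were 5 and 0 (38.4% and 15.9% of all genes). They were 5 and 2 with median-ratio scaling (36.2% and 36.1%), and 7 and 0 with equal protein-coding totals (45.4% and 23.6%). Birc3, encoding the ligase cIAP2 that works with TRAF2 and TRAF3, had 134.6 to 169.4 in B cells and 44.2 to 54.7 in T cells (log2 difference 1.63, SE 0.07, adjusted p = 2.2e-10). Its relative Birc2, encoding cIAP1, was on the other side by -0.32 (adjusted p = 0.00017), but at 0.059 with totals of 1000000 (adjusted p = 0.82). Traf3ip3 likewise went from -0.26 to 0.12. Traf4, Traf6 and Traf7 did not pass, with log2 differences of 0.019, 0.045 and 0.092.

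Of 7 ubiquitin editors and kinases that restrain the pathway, 1 was higher in B cells and 5 in T cells. The shares of all genes were 31.4% and 41.6%. Otud7b, whose product removes ubiquitin from TRAF3, had 17.3 to 20.1 in B cells and 7.01 to 8.59 in T cells (log2 difference 1.23, SE 0.06, adjusted p = 6.5e-10). Ikbke, encoding the kinase IKK-epsilon, had 3.28 to 5.59 in B cells and 92.05 to 114.2 in T cells (log2 difference -4.19, SE 0.09, adjusted p = 2.4e-13). Tnfaip3, encoding A20, differed by -0.83 and Cyld by -0.50. With totals of 1000000, 2 genes of this list and 15.9% of all genes were higher in T cells, and Cyld was at -0.13 (adjusted p = 0.59).

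Of 10 genes of the NF-kB relay, 9 were higher in B cells and 0 in T cells, counts that held under the 3 other scalings. The share of all genes higher in B cells was 31.4% as deposited and at most 45.4% in those scalings. Nfkb2, encoding the precursor that NIK signalling processes, had 62.1 to 83.2 in B cells and 13.0 to 16.3 in T cells (log2 difference 2.31, SE 0.08, adjusted p = 1.4e-11). Its partner Relb differed by 1.14 (SE 0.07, adjusted p = 4.1e-09), at 29.2 to 34.6 against 11.9 to 15.3. Rel, a classical subunit prominent in lymphocytes, differed by 2.40 and the inhibitor gene Nfkbie by 1.93. Chuk, encoding the kinase IKK-alpha that NIK activates, differed by 0.29 (adjusted p = 6.3e-05).

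**Figure D5:**
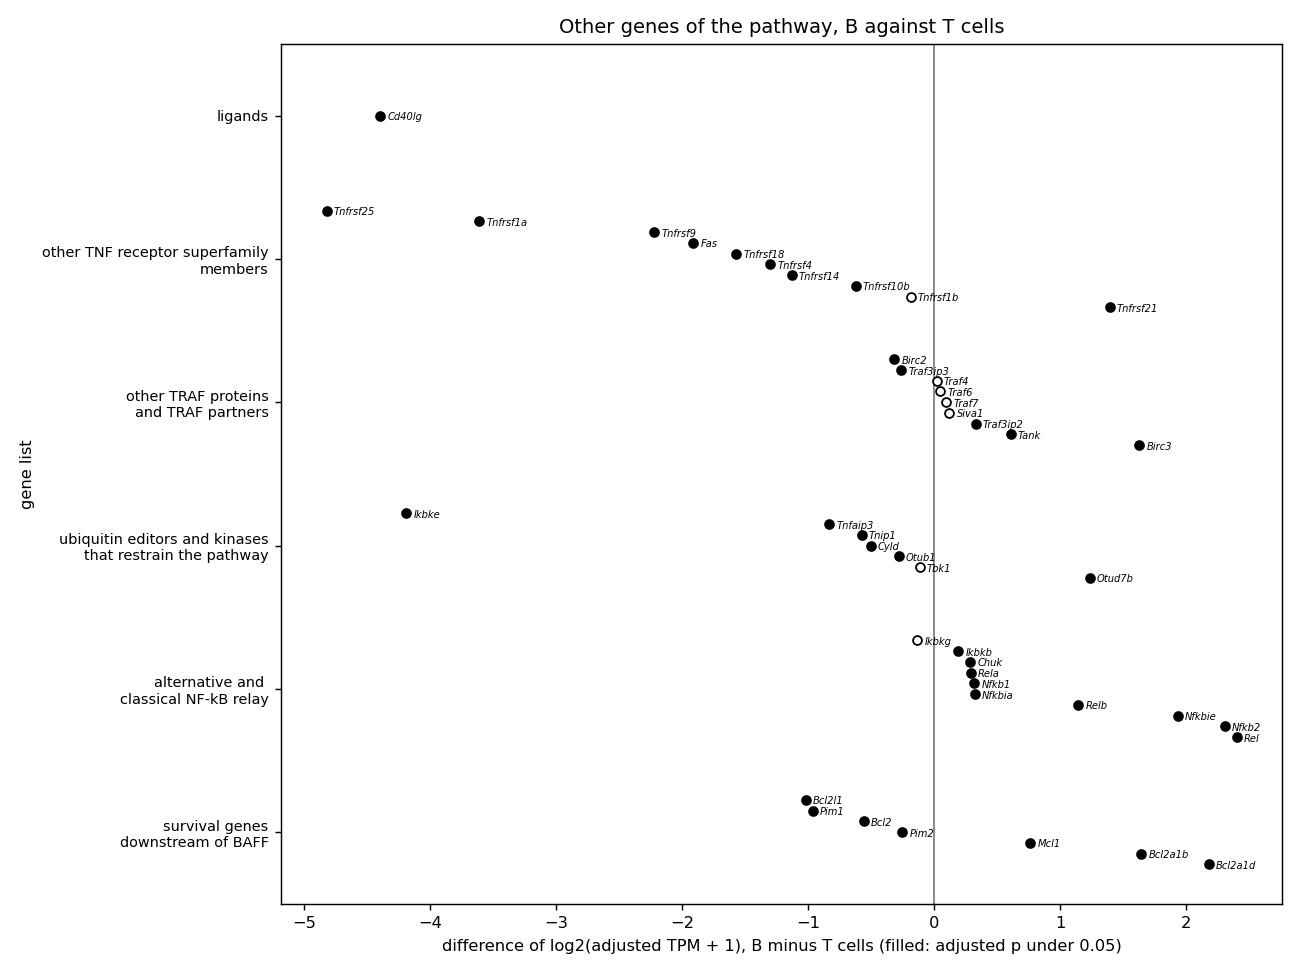
Difference of log2(adjusted TPM + 1) between B and T cells for the 44 tested genes of the 6 pathway lists, with positive values higher in B cells. Filled points passed the threshold in limma and open points did not. In the NF-kB relay 9 of 10 genes lie to the right of 0, and among the other TNF receptors 9 of 10 lie to the left.

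All 7 survival genes tested passed, as did 73% of all genes. Of the 7, 3 were higher in B cells and 4 in T cells, beside 31.4% and 41.6% of all genes. Mcl1, whose product keeps mature lymphocytes alive, had 295.5 to 338.3 in B cells and 157.1 to 223.6 in T cells (log2 difference 0.76, SE 0.09, adjusted p = 8.8e-06). Bcl2a1b differed by 1.64 and Bcl2a1d by 2.18, but these are near-identical copies whose reads may have been split between them, so their single values are uncertain. Bcl2l1, encoding BCL-XL, differed by -1.02 and the kinase gene Pim1 by -0.97. Bcl2 was at -0.56 (adjusted p = 0.00077) and Pim2 at -0.25 (adjusted p = 0.0095), and with totals of 1000000 they were at -0.19 (adjusted p = 0.43) and 0.11 (adjusted p = 0.66).

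Genes most alike to 8 of the members over the 12 libraries were ranked by Pearson's r among 7498 genes, as a description, since all points share the split into lineages. Cd40 lay closest to Pax5 (r = 0.9998), Tnfrsf13c to Spib (r = 0.9998) and Tnfrsf13b to Zbtb18 (r = 0.999). Traf3 lay closest to Cd200 (r = 0.996), Traf1 to Fkbp5 (r = 0.985), Traf5 to Ywhag (r = 0.984) and Traf2 to Hrsp12 (r = 0.963). Map3k14 had the lowest such value, 0.911 with Faf1. The second genes in these rankings were Lmo2, Blk, Igkv10-96, Phtf2, Spint2, Xbp1, Ube2z and Ppp1r10 in the same order.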

How the data were processed

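RNA of the 12 libraries was depleted of ribosomal RNA and sequenced with a stranded kit per the labels. The table deposited by the authors holds a signal named adjusted TPM for 41128 genes, as a point estimate with a lower and an upper bound per library. The submitters' processing notes name Trim Galore, FastQC, STAR and mm10. The quantification tool, the adjustment and the level of the bounds are not given in the sources used here. The values are not counts, so sequencing depth is unknown and precision was read from the bounds, whose median ratio of upper to lower was 1.11 to 1.19 for genes from 10 to 100. Gene identifiers were matched to GENCODE M21 (GRCm38), 40254 of 41128.

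The 12520 genes that reached 1 unit in 3 or more libraries were analysed as log2(adjusted TPM + 1) in limma 3.58.1 (R 4.3.3), with 1 coefficient per group, a variance trend and Benjamini-Hochberg adjustment over all genes. Fold changes on this scale understate the change of low genes. Python 3.11.15 with numpy 2.4.6, pandas 2.3.3 and matplotlib 3.10.9 did the rest, and the fits were tested on simulated data. Groups came from the labels. Library numbers paired female and male T cells, whose deviations from the group means correlated with r of 0.721, 0.548 and 0.521 for the same number. All members were named, and of the pathway lists any gene beside its list's count. Most alike genes were the 2 with the highest r among those whose log2 values averaged 3 or more. The members and lists were chosen with earlier results of these data known. Of the marker genes 1 was not matched and not analysed here, and 1 more, with the genes most alike to Cd27, is not reported here. Alternatives were other scalings, pseudocounts and filters, no trend, a minimum difference, each library left out, the replicate block and, added after seeing the data, pairs of libraries left out the block within a cell type and an estimated correlation between same-numbered T cell libraries.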

Additional observations from a re-analysis of the deposited data

How the results depend on the processing

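The count of members past the threshold between B and T cells was 8 or 9 under each alternative except no filter, which gave 10 because Tnfrsf17 was then tested and called, and a minimum log2 difference of 1, which left 5. Map3k14 passed the threshold with no filter (-0.12, adjusted p = 0.035), and reversed with totals of 1000000 (0.25, within females 0.071, within males 0.42) and with equal protein-coding totals (0.15, within females 0.090, within males 0.22). In these scalings Traf3ip3 reversed to 0.12 and 0.022 and Pim2 to 0.11 and 0.013, and with totals of 1000000 Birc2 reversed to 0.059. Traf2 within females did not pass with totals of 1000000 (0.45, adjusted p = 0.20) or without female B cell 3 (0.21, adjusted p = 0.054). The cause was not tested. With the replicate block, alone or within 1 cell type, the count of members that differed between the sexes was 0 in B cells and in T cells. For the comparison of the lineages, an added fit that let same-numbered T cell libraries correlate (estimated correlation 0.479) gave 8 members, with Map3k14 at an adjusted p of 0.097. Pairing changed no call in these fits. In B cells the same numbers did not pair (r of -0.17, -0.04 and -0.34), and B and T cells share no number. Leaving out female B cell 1 and male T cell 6 gave 9 members between B and T cells, and Map3k14 at -0.15 (adjusted p = 0.025). Depth being unknown, values near 0 such as those of Tnfrsf17, with a median ratio of upper to lower bound of 189.1, carry little precision.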
